A study of Mus musculus with 6 samples.

Results

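The genes described here are 9 genes tied to the memory B cell fate, Zbtb20, Zbtb32, Hhex, Tle3, Ski, Klf2, Cd38, Nt5e and Il9r, as they were marked in germinal center (GC) B cells. They were chosen by name, and all 9 were found among 21864 protein-coding genes of the mouse annotation. For each gene, peaks of 2 histone marks were counted within 5 kb of a transcription start site (TSS) of its protein-coding transcripts (promoter), in the rest of the gene (gene body), and 5 to 50 kb from such a TSS outside the gene (outlying). A peak is a stretch of genome where the authors' peak caller found more fragments than in the local background.

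The data were Mint-ChIP libraries from WT mice, 3 for H3K4me1 and 3 for H3K4me3, with no mutant or treated group. In Mint-ChIP, chromatin of few cells is barcoded and pooled before immunoprecipitation. Spleens were taken 8 days after sheep red blood cells (SRBC) were given, and 50000 sorted cells entered each library. The labels give the cells as GC Centrocytes, the light zone stage, but the methods of the study speak of GC B cells as such, and neither says whether the libraries came from separate mice. What WT carries was not given for these mice, and elsewhere in the study WT stands for mice with the Cre allele Cγ1-cre/+ alone, which is active in GC B cells. In the labels' protocol an H3K27ac antibody is given, but titles, antibody catalogue labels and the published methods all give H3K4me1 or H3K4me3, so the titles were followed.

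A B cell that leaves the GC becomes a memory B cell or a plasma cell. Memory B cells are resting and long-lived, and they answer a second encounter with antigen. H3K4me3 is found at the start sites of active genes and H3K4me1 at enhancers and at the edges of promoters. Neither mark measures transcription.

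The H3K4me1 lists held 11922 to 24136 peaks and the H3K4me3 lists 41936 to 46707. H3K4me1 replicate 1 held the most peaks of its mark, and it also had the highest H3K4me1 peak number at several of these genes. The 6 B cell markers (Pax5, Ebf1 and others) and the 8 GC B cell markers (Bcl6, S1pr2 and others) all had an H3K4me3 promoter peak in 3 of 3 libraries, as did the 5 plasma cell markers. None of 5 T cell markers and none of 5 markers of other tissues did. Of the myeloid markers 2 of 5 did (Itgam and Cebpa), with 1.74 to 3.01 kb covered over the whole list per library, and of the erythroid markers 3 of 4 did (Klf1, Epor and Hbb-bt), with 7.48 to 9.2 kb, while Gata1 and Lyz2 had none. The part of such cells in the results below was not tested.

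All 9 memory genes had an H3K4me3 promoter peak in 3 of 3 libraries, where 56.2% of all protein-coding genes did. An H3K4me1 promoter peak in 3 of 3 libraries was found at 2 of them, Zbtb20 and Zbtb32, against 6.17% of all genes. This count takes any peak in the window, and no single H3K4me1 promoter site was shared by all 3 libraries. With H3K4me1 replicate 2 left out the count was 4, under a rule of 2 of 2 libraries. The share over all genes under that rule was not computed. Hhex and Tle3 had no H3K4me1 promoter peak in any library. In each of the 9 genes the promoter length covered by H3K4me3 peaks was above that covered by H3K4me1 peaks in every library, a pattern seen in 55.8% of all genes. That share nearly repeats the one for H3K4me3 promoter peaks (12193 against 12286 genes), so it is no separate result. The two-sided exact permutation test over all 20 assignments of the libraries gave p = 0.1 for each gene, the smallest value that 3 against 3 libraries allow, and 0.179 after adjustment over all genes. The H3K4me3 lists were called as broad peaks and the H3K4me1 lists as narrow peaks, so the mark and the calling mode cannot be told apart in these contrasts. With each list limited to its 10000 peaks of highest −log10 p-value, 1 of the 9 genes still had every H3K4me3 library above every H3K4me1 library. The share over all genes was not computed under this limit.

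**Figure D1:**
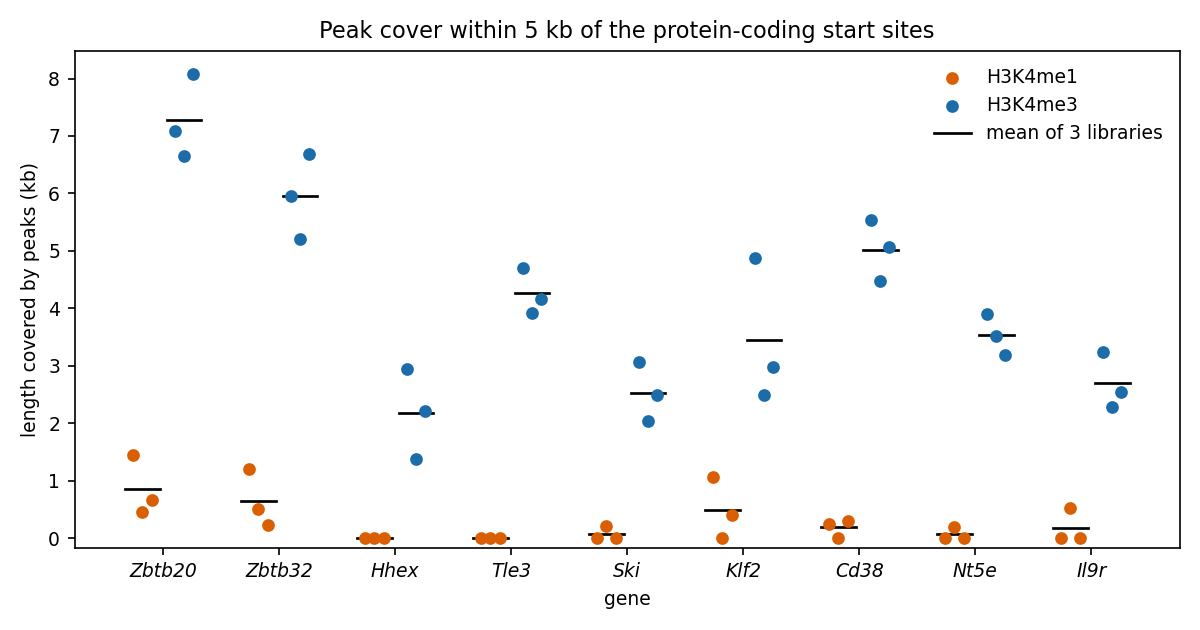
Length within 5 kb of the start sites that lay under peaks (kb, vertical axis) for each gene, with 1 point per library and a bar at the mean of the 3 libraries of a mark. The H3K4me3 points lie above the H3K4me1 points at every gene, and H3K4me1 is at 0 in all 3 libraries for Hhex and Tle3.

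Zbtb20 encodes a BTB zinc finger repressor expressed in memory B cells and plasma cells. The gene spans 767 kb on chromosome 16 (42875881-43642602, plus strand), and its protein-coding transcripts in the GENCODE basic set, the set used throughout, start at 4 sites. H3K4me3 peaks covered 7.09, 6.66 and 8.08 kb of its promoter windows in replicates 1, 2 and 3 (mean 7.28 ± 0.727 kb, SD, n = 3), and H3K4me1 peaks covered 1.44, 0.461 and 0.665 kb (0.856 ± 0.518 kb, SD, n = 3). No H3K4me1 library reached the lowest H3K4me3 library. Most of the H3K4me3 cover lay at 1 start site.

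That start site is the one of transcript Zbtb20-202 at position 43508263, and it lay inside an H3K4me3 peak in all 3 libraries. The peak was 10859, 9970 and 11058 bp wide, and on the mean width of the widest promoter peak 99.9% of genes lay below Zbtb20. It ran from 9088, 8310 and 9334 bp upstream of the start site to 1770, 1659 and 1723 bp downstream. Within 50 kb of this start site, H3K4me3 peaks covered 30.4, 29.2 and 29.3 kb. Within 50 kb of the start site shared by Zbtb20-201 and Zbtb20-203, which lies further upstream, they covered 2.42, 0.796 and 1.46 kb, and around Zbtb20-204, the most upstream of all, 2.23, 2.28 and 3.62 kb. H3K4me1 followed the same division, with 18, 13 and 8 peaks within 50 kb of the Zbtb20-202 start site, 1, 0 and 0 around Zbtb20-204 and none around the Zbtb20-201 start site in any library. Zbtb20-205 starts close by, at 43510308. Within 50 kb of it lay 28.7, 28.1 and 28.1 kb of H3K4me3 cover and 18, 12 and 7 H3K4me1 peaks. The 50 kb values therefore cannot be assigned to either of these neighbouring start sites alone. In neither mark did the values at these neighbours overlap those at the upstream sites. Zbtb20-202 was picked for its H3K4me3 cover, so the H3K4me3 difference follows in part from that choice. No share over all genes was computed for it.

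The body of Zbtb20 held 26, 16 and 13 H3K4me1 peaks and 28, 28 and 26 H3K4me3 peaks. H3K4me3 covered 39.7, 40.3 and 37.9 kb of it and H3K4me1 9.66, 5.86 and 3.63 kb. Scaled to length, the mean H3K4me1 peak number was 2.5 per 100 kb of gene body and that of H3K4me3 3.72, and 86.6% and 80% of genes with a body of at least 10 kb lay below these values. Of 15 H3K4me3 body regions found in 3 of 3 libraries, 12 lay upstream of the Zbtb20-202 start site and 3 downstream of it within 50 kb. Of the 12, 8 had it as the nearest start site of the gene, from chr16:43395843-43398577 to chr16:43493368-43496022, all but 1 of the 8 within introns.

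Merging the peaks of a mark over its libraries gave 110 H3K4me1 regions at the 9 genes, of which 4 held a peak of all 3 libraries, 30 of 2 libraries and 76 of 1 library. The 136 H3K4me3 regions comprised 61 seen in 3 of 3 libraries. The share of merged regions seen in 3 of 3 libraries was not computed over the genome for either mark. Of the 4 shared H3K4me1 regions, 3 were in Zbtb20 and 1 in Cd38. All 4 were intronic.

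Of the shared Zbtb20 regions, the one with the highest mean summit lay at chr16:43484405-43485485, 23.3 kb upstream of the Zbtb20-202 start site. Its summits were 12, 7 and 7 fragments high, and its fold enrichment over the local background ran from 4.18 to 9.12. The next by height among the regions shared by all 3 libraries lay at chr16:43476751-43477516, with summits of 9, 8 and 4 fragments. The Cd38 region lay at chr5:43881763-43882260, 13.4 kb downstream of the start site, with summits of 12, 10 and 10 fragments and a fold enrichment of 6.8 to 8.25. This Cd38 region and the first of the Zbtb20 regions lay in part or in whole inside an H3K4me3 region found in 3 of 3 libraries. Their summit sequences, 201 bases of the plus strand of GRCm38 around the mean summit (chr16:43484889-43485089 and chr5:43881897-43882097), are shown as the H3K4me1 sites at these genes that recurred in every library with the highest summits. Capitals mark matches to the motifs named after them.

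Zbtb20 intronic summit: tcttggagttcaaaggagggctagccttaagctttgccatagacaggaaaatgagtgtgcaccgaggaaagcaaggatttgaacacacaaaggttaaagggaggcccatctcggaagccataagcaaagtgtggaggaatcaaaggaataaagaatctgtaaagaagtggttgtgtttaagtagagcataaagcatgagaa
Cd38 intronic summit: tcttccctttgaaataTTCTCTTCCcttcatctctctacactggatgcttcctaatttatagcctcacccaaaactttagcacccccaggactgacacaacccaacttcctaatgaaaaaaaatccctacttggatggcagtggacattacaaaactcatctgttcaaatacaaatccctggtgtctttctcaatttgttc

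Both windows were AT-rich, with 42.8% and 40.3% GC against a median of 45.8% over the windows of all H3K4me1 peaks. Motifs were searched by exact letters on both strands: GAGGAAGT (ETS, PU.1), CAGCTG (E-box), ATGCAAAT (octamer), GGAANNGAA (ETS-IRF composite), TTCCTAGAA (BCL6), GGANTTTCC (NF-kB), CCACACCC (KLF), TGTGGTTT (RUNX) and CTATTTNTA (MEF2). The Cd38 window held 1 match, to GGAANNGAA on the minus strand, which 7.65% of 49980 H3K4me1 summit windows of this length also held. The Zbtb20 window held none. The other 8 motifs were each found in 0.314% to 9.94% of the windows.

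Zbtb32 encodes another BTB zinc finger factor, known to restrain the recall response of memory B cells. It is a short gene on chromosome 7 (30589681-30598909, minus strand) in a crowded stretch, with the start sites of 10 other protein-coding genes within 50 kb. H3K4me3 covered 5.95, 5.21 and 6.69 kb of its promoter windows and H3K4me1 1.21, 0.512 and 0.233 kb. The start site of Zbtb32-202 lay inside an H3K4me3 peak in 3 of 3 libraries, whereas that of Zbtb32-201 lay 1075, 293 and 907 bp from the nearest one. Of its 3 H3K4me3 promoter regions, 1 held the start site of Kmt2b. Without peaks that held a start site of another gene, the mean difference in promoter cover was 2933 bp in place of 5296 bp. The marks stayed separated under this alternative, which was chosen after the data were seen. H3K4me1 peaks flanked the marked start site on its upstream side in libraries 1 and 2, and none of the 4 H3K4me1 promoter regions recurred in all 3 libraries.

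Outside the gene Zbtb32 had 10, 7 and 6 H3K4me3 peaks and 2, 2 and 4 H3K4me1 peaks. The 5 outlying H3K4me3 regions found in 3 of 3 libraries each held a start site of another gene, the nearest being Hspb6, Lin37, Psenen, Cox6b1 and Etv2. Without peaks that held a start site of another gene, an alternative chosen after the data were seen, the mean difference in outlying peak number was 0.667 in place of 5 and the marks overlapped (exact permutation p = 0.7, n = 3 per mark).

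Hhex, Tle3 and Ski code for transcriptional repressors. Hhex is a homeobox factor that promotes the memory fate, Tle3 is a Groucho-type corepressor that binds it, and Ski is a corepressor known for blocking TGF-β signalling. Their promoters held H3K4me3 peaks and almost no H3K4me1 peaks, where the median H3K4me1 promoter cover over all genes was 0 bp. A missing peak does not show that the mark was absent. H3K4me3 covered 2.95, 1.37 and 2.21 kb at Hhex, 4.71, 3.91 and 4.17 kb at Tle3, and 3.06, 2.04 and 2.49 kb at Ski. Among these promoters an H3K4me1 peak was called only at Ski, 1 of 210 bp in replicate 2.

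The widest promoter H3K4me3 peak of Tle3 (chromosome 9, 61372366-61418497, plus strand) was 4708, 3913 and 3423 bp wide, and 95.6% of genes had a lower mean width. That of Hhex (chromosome 19, 37434810-37440731, plus strand) was 2160, 1374 and 2205 bp, with 72.2% of genes below, and that of Ski (chromosome 4, 155154075-155222592, minus strand) 1285, 2045 and 1452 bp, with 63.6% below. Away from the promoter Hhex had 4, 7 and 6 outlying H3K4me3 peaks and 2, 3 and 0 H3K4me1 peaks. No other protein-coding gene started within 50 kb of Hhex, and of its 3 recurrent outlying H3K4me3 regions 1 held the start of a long noncoding RNA, AC137605.3. Tle3 had 4, 1 and 4 H3K4me3 and 0, 1 and 0 H3K4me1 peaks, where the marks met at 1 (exact permutation p = 0.2, n = 3 per mark). Ski had 2, 3 and 3 H3K4me3 and 1, 1 and 0 H3K4me1 peaks, and 1 of its 2 recurrent outlying H3K4me3 regions held a start site of Faap20, without which the marks overlapped. The body of Ski was covered by H3K4me3 over 1.22, 0.21 and 1.32 kb and held no H3K4me1 peak.

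Klf2 encodes a zinc finger factor that keeps lymphocytes resting and directs their traffic. It is 2.62 kb long on chromosome 8 (72319033-72321656, plus strand). H3K4me3 covered 4.87, 2.49 and 2.98 kb of its promoter window and H3K4me1 1.06, 0 and 0.408 kb. Outside the gene Klf2 had 14, 10 and 5 H3K4me1 peaks and 10, 9 and 12 H3K4me3 peaks. Its mean outlying peak number was 9.67 for H3K4me1 and 10.3 for H3K4me3, with overlapping libraries (exact permutation p = 1, n = 3 per mark), although H3K4me3 covered 21.2, 14.9 and 13.6 kb there and H3K4me1 4.66, 3.29 and 1.64 kb. The direction of this small difference turned when H3K4me1 replicate 3 was left out (−1.67) and when H3K4me3 replicate 3 was left out (−0.167). On mean H3K4me1 outlying peak number 99.9% of genes lay below Klf2. These numbers were not scaled to window length, which differs between genes. The outlying window was 90000 bp at Klf2, as at Zbtb32 and Hhex, against 45000 bp at Ski and 18229 bp at Zbtb20.

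These Klf2 peaks fell into groups. The H3K4me3 region at chr8:72265412-72276882, centred 47.9 kb upstream and intergenic, held 3, 4 and 3 H3K4me1 peaks. Its nearest coding start site was one of Ap1m1, 25394 bp away. A second group lay downstream in introns of Eps15l1, where the H3K4me3 region at chr8:72353584-72356832 held 3, 3 and 1 H3K4me1 peaks and the one at chr8:72348063-72352735 held 2, 3 and 0. No single merged H3K4me1 region at Klf2 was shared by all 3 libraries, 8 outlying ones were shared by 2, and none of the 7 recurrent H3K4me3 regions held a coding start site.

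Cd38, Nt5e and Il9r code for proteins of the cell surface. CD38 is an enzyme that consumes NAD and is low on mouse GC B cells and high on memory B cells, CD73 (encoded by Nt5e) makes adenosine and marks memory B cells, and IL-9R is a cytokine receptor of memory B cells. In the study's flow cytometry, GC B cells were gated as CD38-FAS+. The gate behind these libraries was not given in the sources used here.

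At Cd38 (chromosome 5, 43868553-43912375, plus strand) H3K4me3 covered 5.53, 4.47 and 5.06 kb of the promoter window, and its start site lay inside a peak in 3 of 3 libraries. The peak was 5529, 3539 and 5064 bp wide, with 97.2% of genes below its mean width. H3K4me1 covered 0.251, 0 and 0.302 kb. In the body, H3K4me3 covered 4.66, 5.37 and 4.89 kb, nearly all of it in 1 intronic peak of 4657 to 5157 bp, and H3K4me1 covered 1.69, 0.632 and 1.22 kb in 4, 2 and 3 peaks. Per 100 kb of gene body that was a mean of 7.73 H3K4me1 peaks, with 97.5% of genes below. The H3K4me1 summit shown above lies in this intronic peak. Upstream, 6 outlying H3K4me3 regions recurred in 3 of 3 libraries between 9.22 and 43.7 kb from the start site, the farthest 2 in the neighbouring gene Bst1, a paralog of Cd38. H3K4me1 had 4, 5 and 1 outlying peaks there against 7, 6 and 6 for H3K4me3.

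Nt5e (chromosome 9, 88327197-88372092, plus strand) had an H3K4me3 promoter peak of 3897, 3160 and 3001 bp, with 93% of genes below its mean width. Its start site lay inside the peak in replicates 1 and 3 and 446 bp from it in replicate 2. Few H3K4me1 peaks were called at Nt5e, 1 promoter peak in replicate 2 and 1 outlying peak in replicate 3. The 2 recurrent outlying H3K4me3 regions, at chr9:88295874-88299410 and chr9:88303100-88304201, were intergenic, and H3K4me1 met the first in 1 library and the second in none.

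Il9r (chromosome 11, 32187541-32200279, minus strand) had 5, 4 and 4 H3K4me3 promoter peaks. They covered 3.24, 2.29 and 2.55 kb, and the widest region, chr11:32204001-32207213, held the start site of Snrnp25 and not that of Il9r. The peak at the Il9r start site ran over the site in 2 of 3 libraries and was 336 to 962 bp wide. Outlying H3K4me3 peaks numbered 8, 7 and 6 and H3K4me1 peaks 4, 1 and 1. Of the 6 outlying H3K4me3 regions in 3 of 3 libraries, 4 overlapped Nprl3 and 2 lay at or near Rhbdf1. Introns of Nprl3 hold the α-globin enhancers of red cells. Of the 4 regions, chr11:32225768-32227647 held a coding start site of Mpg. Another, chr11:32237187-32238861, held the start of a noncoding Nprl3 transcript. H3K4me3 promoter peaks at erythroid markers were given above, and their part here was not tested.

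**Figure D2:**
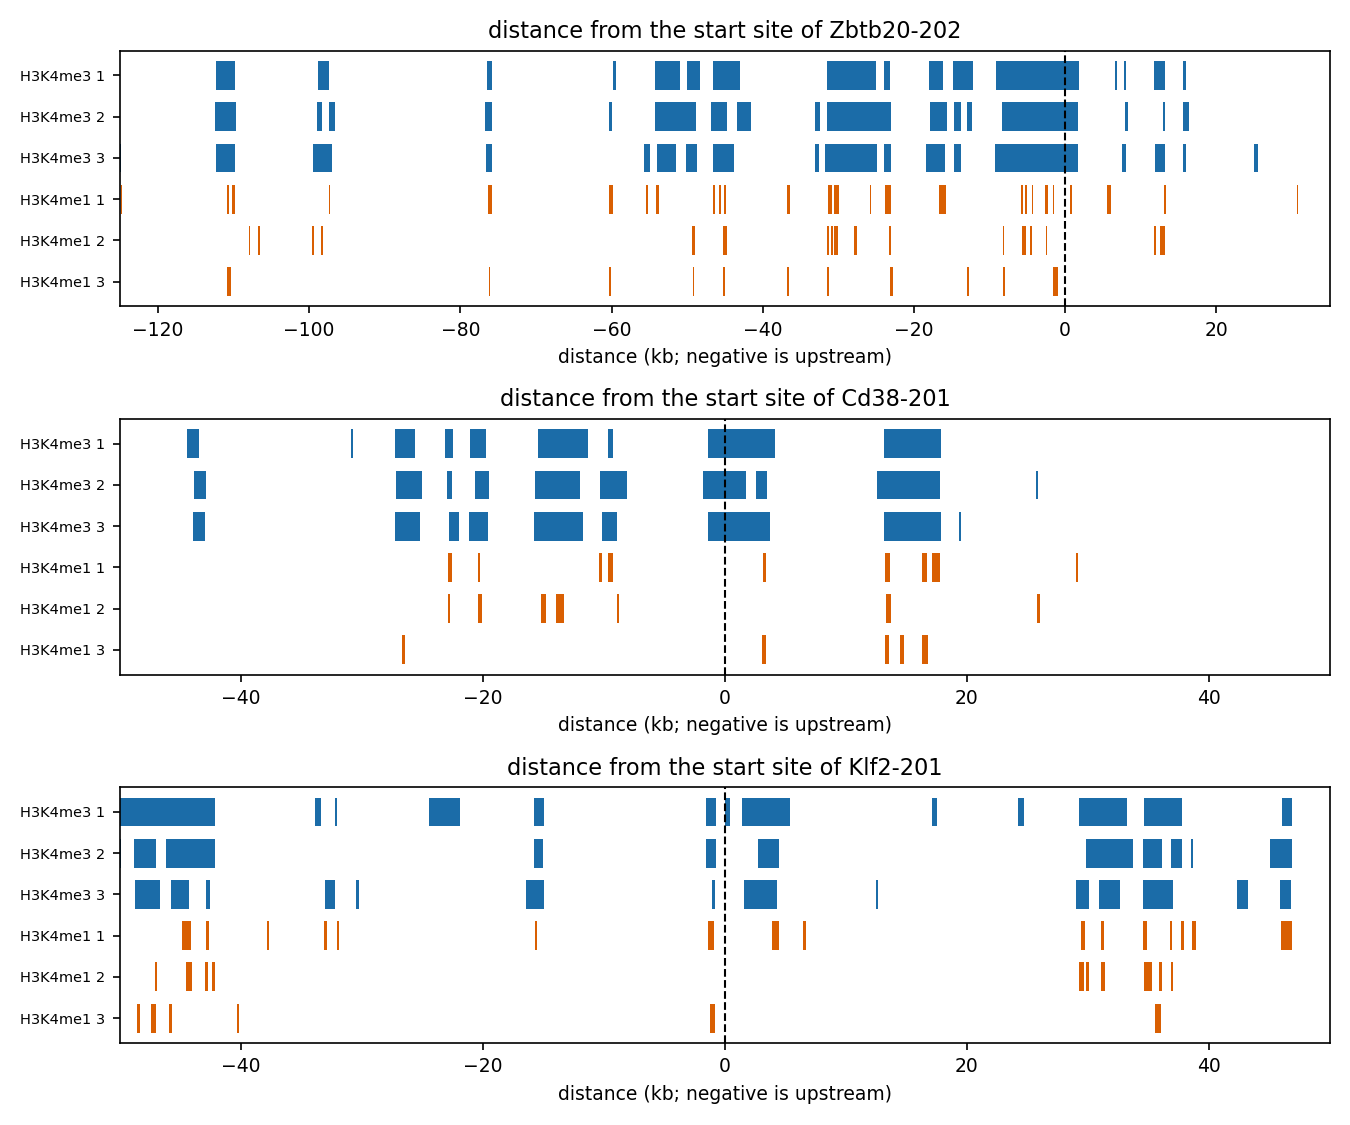
Peaks of each library as bars along the distance (kb) from the start sites of Zbtb20-202, Cd38-201 and Klf2-201, with H3K4me3 replicates 1 to 3 above and H3K4me1 replicates 1 to 3 under them. Zbtb20 and Cd38 have a wide H3K4me3 peak over the start site and further ones upstream, and Klf2 has narrow H3K4me1 peaks in groups 40.2 to 48.5 kb upstream and 29.5 to 37 kb downstream.

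Over the 9 genes, outlying peaks were more numerous for H3K4me3 than for H3K4me1 in every library at 6 of 9 genes, against 37.4% of all genes (p = 0.1 each by the exact permutation test, 0.267 after adjustment over all genes), the exceptions being Klf2, Tle3 and Zbtb20. The count was 3 of 9 with a −log10 q-value of at least 5 and 2 of 9 with 10000 peaks per library. Under the latter the mean difference turned at Hhex (−0.333), Klf2 (−2.33) and Cd38 (−1). With peaks that held a start site of another gene left out, the separation of the marks was lost at Zbtb32 and Ski. Shares over all genes were not computed under these limits or under this alternative. The outlying windows of Zbtb20 held no peak that did not touch the gene. A longer H3K4me3 cover of the gene body in every library was found at 3 of 9, Zbtb20, Ski and Cd38, against 18.7% of all genes (exact permutation p = 0.1 each, 0.534 after adjustment). An outlying H3K4me3 peak in 3 of 3 libraries was present at 8 of 9 genes (60.3% of all genes). An outlying H3K4me1 peak was present at 4 of 9 (20.4%), Zbtb32, Klf2, Cd38 and Il9r. These counts take any peak in the window, and no merged outlying H3K4me1 region was shared by all 3 libraries. At Il9r each of the 8 H3K4me1 regions was seen in 1 library. In the gene body the counts were 3 of 9 for H3K4me3 (19.3%) and 2 of 9 for H3K4me1 (6.64%), Zbtb20 and Cd38. Zbtb32, Hhex and Klf2 have no gene body outside their promoter windows, so they could hold no body cover and no body peak. Such genes were also counted in the shares over all genes. The median over the 9 genes was 3533 bp for H3K4me3 promoter cover and 177 bp for H3K4me1, where the medians over all genes were 1032 and 0 bp.

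**Figure D3:**
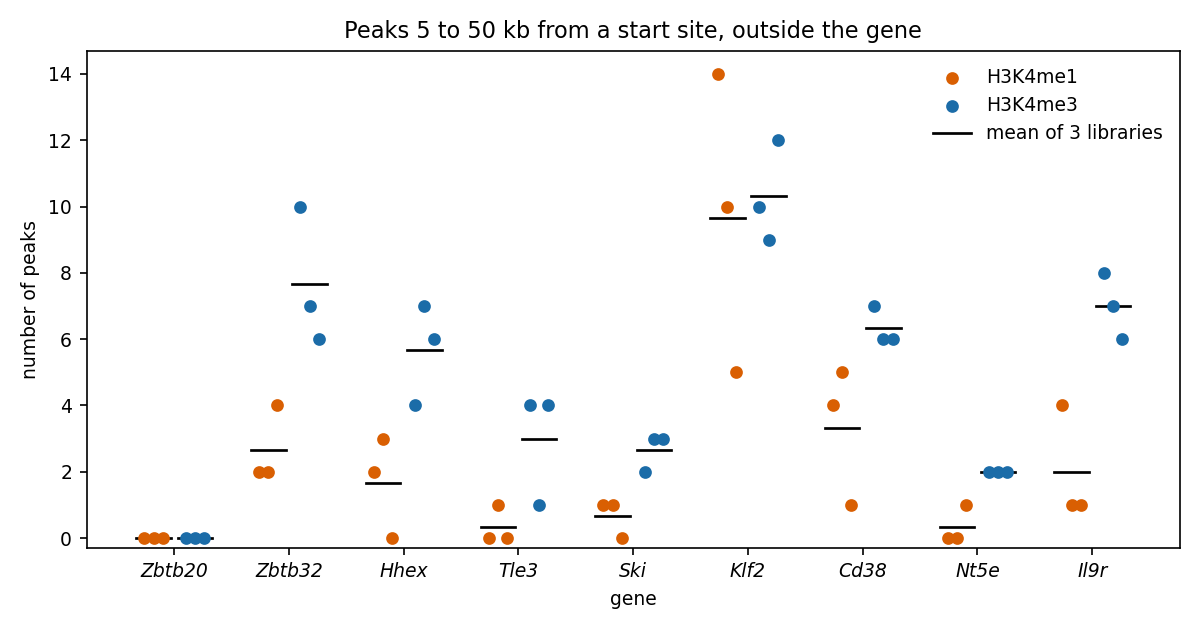
Number of peaks 5 to 50 kb from a start site and outside the gene (vertical axis), 1 point per library, with a bar at the mean of 3 libraries. Klf2 is the gene with the most H3K4me1 peaks, 14, 10 and 5, and the 2 marks overlap there.

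The marks shared much of their ground. Of 150 H3K4me1 peaks at the 9 genes, 132 (88%) overlapped an H3K4me3 peak of some library, against 81.2% of all 49981 H3K4me1 peaks. Summits were low, from 4 to 12 fragments with a median of 6, and 13 of the 150 reached 10. Seen from the other mark, 43 of the 61 recurrent H3K4me3 regions held an H3K4me1 peak in at least 1 library and 7 did in all 3, where the shares over 26818 such regions of the genome were 58.9% and 11.4%. Of the 61 regions, 7 held a coding start site of the basic set belonging to the gene itself, 9 one of another gene, 4 only the start of a transcript outside these, and 41 held no annotated start. Of the 4, the Zbtb20 region at chr16:43363417-43364472 held starts of Zbtb20-216 and Zbtb20-219, coding transcripts that are not in the basic set. Over the genome, 35.7% held a coding start site of the basic set, 7.52% only another start and 56.8% none.

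The H3K4me3 peaks did not always lie over the start site itself. A start site inside an H3K4me3 peak in 3 of 3 libraries was found at 5 of the 9 genes (Zbtb20, Zbtb32, Hhex, Tle3 and Cd38), against 38.3% of all genes. Counted by site, 6 of 25 start sites were inside a peak in 3 libraries, 12 in 1 or 2, and 7 in none, and no H3K4me1 peak covered any of the 25. Of the 23 sites with an H3K4me3 peak within 2 kb in every library, 6 were covered in 3 libraries and 6 in none, against 67.9% and 12.6% of 22024 such sites in the genome. The sites are not independent, since 10 of the 25 belong to Tle3 and share its peaks. At Klf2 the nearest H3K4me3 peak was 1, 776 and 782 bp from the start site, with peaks on either side of it. At Ski-202 it was 331, 353 and 82 bp away. At Hhex the start site of Hhex-201 was 366, 852 and 784 bp from a peak, while that of Hhex-202, further into the gene, was covered in every library. The 2 most upstream of the 10 Tle3 start sites were covered in 3 libraries and the other 8 in replicate 1 alone.

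**Figure D4:**
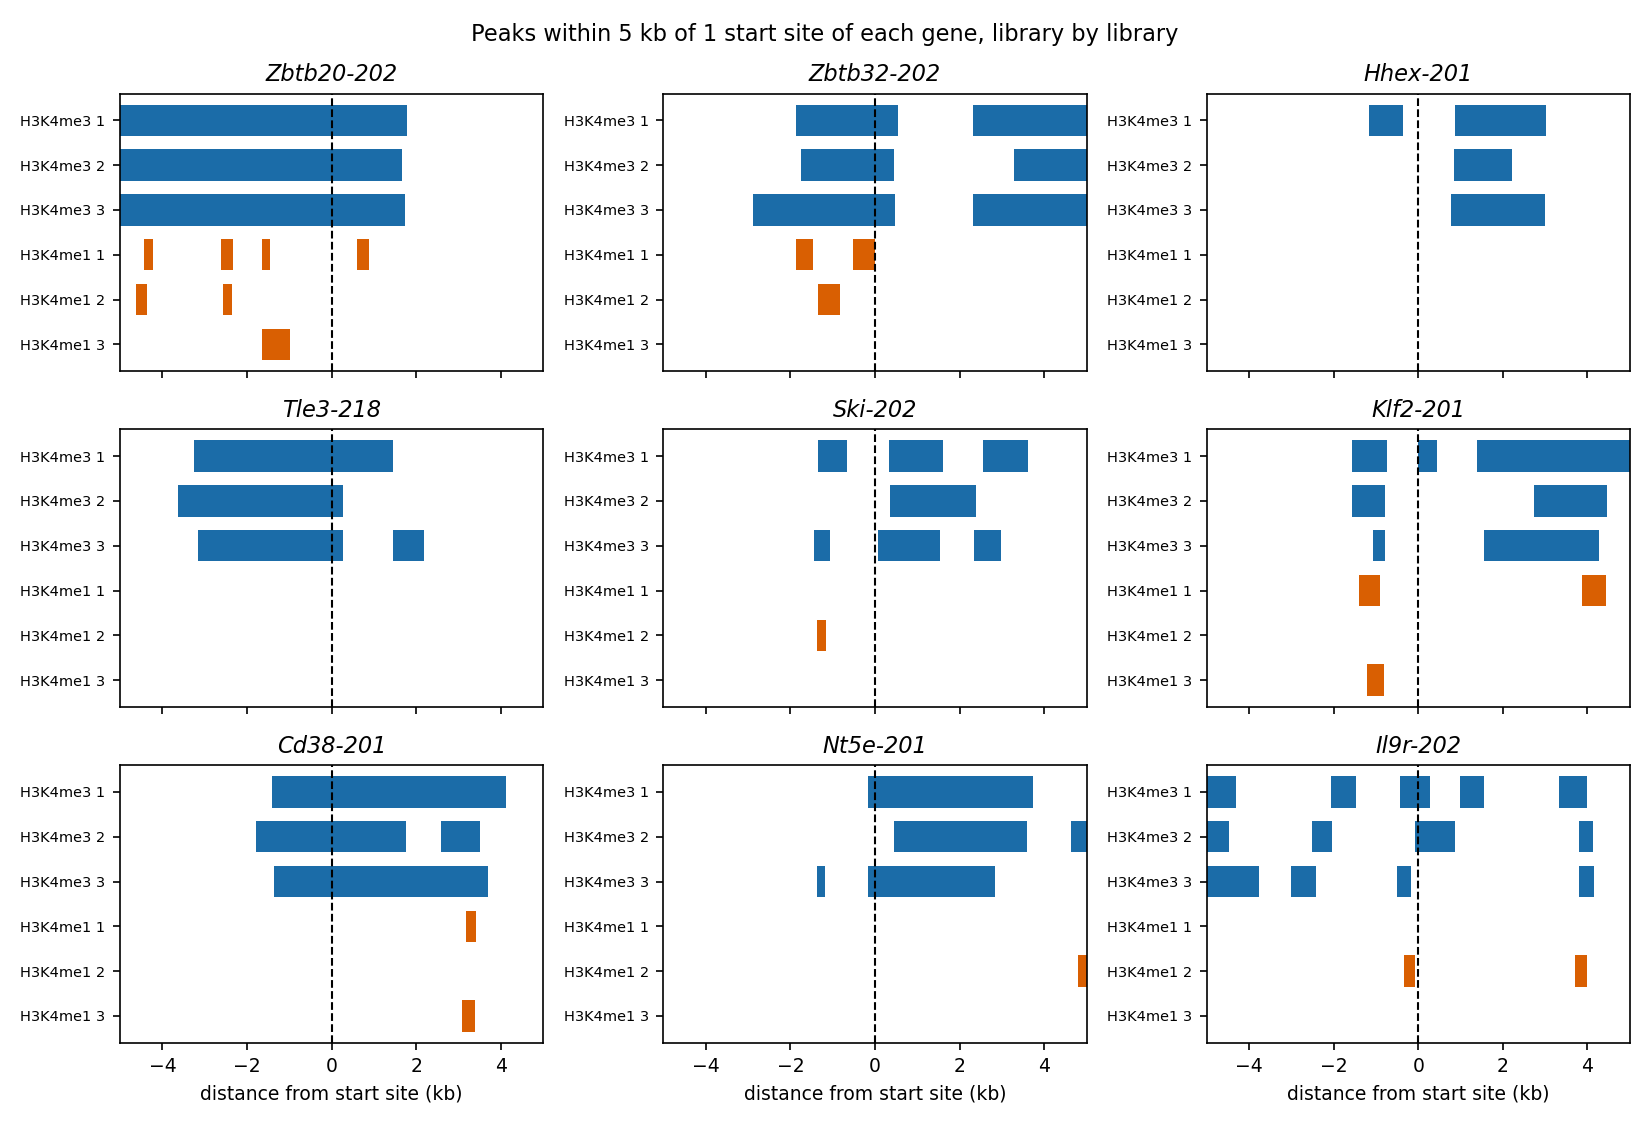
Peaks of each library as bars over the 5 kb on either side of 1 start site per gene (dashed line, distance in kb in the direction of transcription). The site drawn has the most H3K4me3 cover in this window. At Hhex, Tle3 and Ski the sites tied in cover, and the one of lowest coordinate is drawn. Hhex-202, which is not drawn, lay under a peak in 3 libraries. The start site is bare of H3K4me3 in every library at Hhex-201, Ski-202 and Klf2-201 and lies under a peak in every library at Zbtb20-202, Zbtb32-202, Tle3-218 and Cd38-201.

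The bare start sites at Ski, Hhex and Klf2 were rich in G and C. In 501 bases centred on the site, GC content was 80.6% and 82% at the 2 Ski sites, 74.7% at Hhex-201 and 68.3% at Klf2, and it was 40.3% at Zbtb20-202, 46.5% at Cd38, 52.5% at Zbtb32-202 and 52.7% at Hhex-202, which were all covered in 3 libraries. At Tle3 the 2 sites covered in 3 libraries had 55.9% and 58.1% and the other 8 had 63.9% to 71.5%. Zbtb20-205, at 41.9%, and Zbtb32-201, at 54.5%, were bare as well, so low GC content did not go with cover at every site. Of all 22024 start sites in the genome with an H3K4me3 peak within 2 kb in 3 of 3 libraries, 82.5% were covered in 3 libraries where GC content was 60 to 65%, 71.6% at 65 to 70%, the class of Klf2, 46.6% at 70 to 75% and 18.6% at 75% or more. At under 40% the share was 30.1%, at 40 to 50% it was 58.6% and at 50 to 60% it was 79.4%. The last 2 classes hold Zbtb20-202, Cd38, Zbtb32-202 and Hhex-202. Sites of 1 gene share peaks, and the part of GC content in the gaps was not tested.

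**Figure D5:**
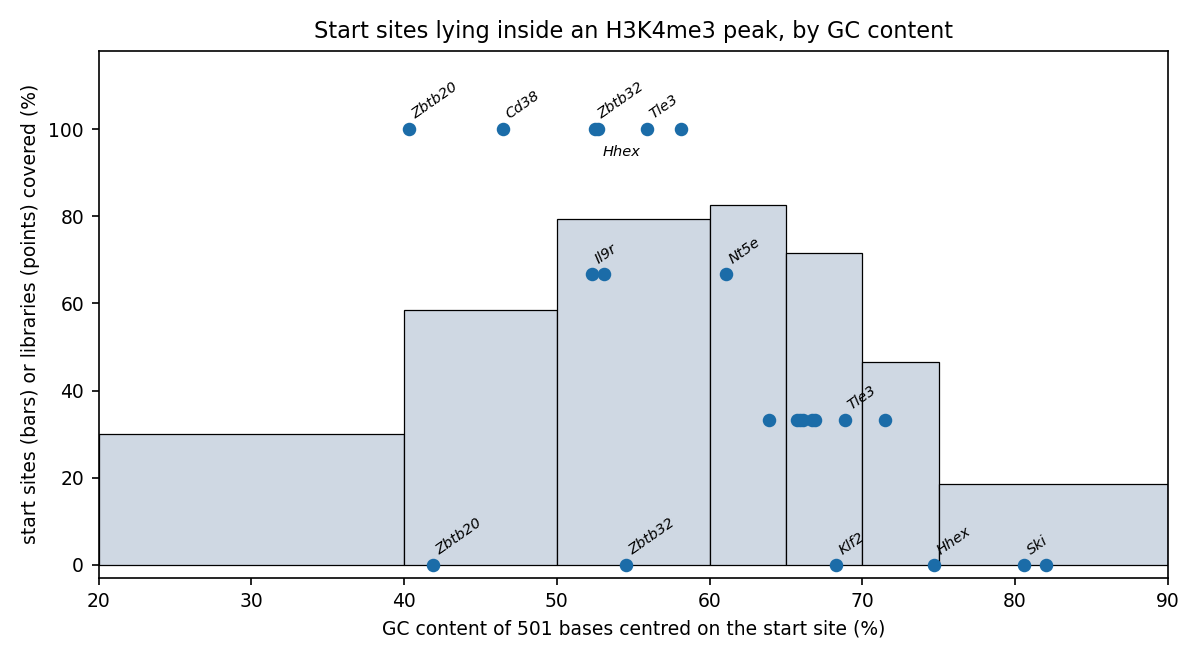
Bars give the share of start sites lying inside an H3K4me3 peak in 3 of 3 libraries, by GC content of 501 bases (horizontal axis, %), among 22024 sites with a peak within 2 kb in every library, with the lowest and highest classes drawn to 20% and 90%. Points are start sites of the memory genes at the share of the 3 libraries that cover them, and the Ski points stand at 0 in the class where 18.6% of sites are covered.

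The 200 bases upstream of 4 start sites are shown as examples. They are given 5′ to 3′ on the strand of the gene, with CG dinucleotides in capitals, for Klf2 (chr8:72318833-72319032, plus strand) and Ski (chr4:155222593-155222792, minus strand), whose start sites were bare, and for Cd38 (chr5:43868353-43868552, plus strand) and Il9r (chr11:32200237-32200436, minus strand), whose start sites were covered in 3 and 2 libraries. They were picked after the cover was known.

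Klf2: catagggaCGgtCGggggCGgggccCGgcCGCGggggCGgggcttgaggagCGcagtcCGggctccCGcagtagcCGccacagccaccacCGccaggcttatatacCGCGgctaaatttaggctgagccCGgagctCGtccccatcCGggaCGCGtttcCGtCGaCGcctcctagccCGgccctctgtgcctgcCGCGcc
Ski: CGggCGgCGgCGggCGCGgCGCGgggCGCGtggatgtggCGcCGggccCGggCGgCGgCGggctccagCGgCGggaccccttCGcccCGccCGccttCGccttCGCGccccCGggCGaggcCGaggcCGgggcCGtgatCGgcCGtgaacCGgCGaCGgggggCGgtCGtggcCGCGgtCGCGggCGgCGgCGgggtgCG
Cd38: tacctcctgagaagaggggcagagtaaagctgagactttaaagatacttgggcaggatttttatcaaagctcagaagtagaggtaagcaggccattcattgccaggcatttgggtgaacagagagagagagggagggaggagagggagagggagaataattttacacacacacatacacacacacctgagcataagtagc
Il9r: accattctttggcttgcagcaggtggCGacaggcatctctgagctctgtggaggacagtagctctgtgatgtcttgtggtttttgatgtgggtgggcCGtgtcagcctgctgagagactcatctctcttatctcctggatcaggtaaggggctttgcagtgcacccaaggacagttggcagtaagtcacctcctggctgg

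These stretches held 25, 44, 0 and 2 CG dinucleotides in this order, where the median over 41438 start sites was 8, and their GC content was 72.5%, 87%, 46.5% and 54.5%. The median GC content was 56.5%.

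A list of 12 other genes of memory B cells was set beside these 9. All 12 had an H3K4me3 promoter peak in 3 of 3 libraries. H3K4me1 promoter peaks recurred in every library at 6 of 12: Cd80 and Pdcd1lg2, which encode ligands for receptors of the CD28 family, the migration receptors Gpr183 and Ccr7, Tnfrsf13b, which encodes the receptor TACI, and the transcription factor gene Foxp1. Bcl2 had none in any library. H3K4me1 covered 1470, 939 and 664 bp at the Cd80 promoter.

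By the covered length of promoter and outlying windows in the 6 libraries (12 values on a log2(1 + bp) scale), the gene nearest to Hhex was Tbc1d7, with a mean absolute difference of 0.155, and the nearest to Ski was Nol8 (0.185). For the other members the distances to the nearest gene were larger. Zbtb20 was nearest to Mier1 (0.271), Zbtb32 to Wnk1 (0.342), Tle3 to Isg15 (0.278) and Klf2 to Gm49661 (0.35). Cd38 was nearest to BC005537 (0.29), Nt5e to Lamtor4 (0.372) and Il9r to Pip4p1 (0.268). No member was nearest to another member.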

How the data were processed

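Peaks were taken as the authors deposited them, 1 list per library, called in each library on its own. Submitters' processing notes list BWA, Picard, HOMER, Genrich and mm10, whereas the layout and the values are those of MACS2; the caller's version, settings and control were not given in the sources used here. The deposited fold enrichment was read as a linear ratio of fragments to local background with 1 added to both. At low counts it is therefore smaller than the plain ratio. Beside it stand −log10 p-values and −log10 q-values from the authors' caller. The deposited score, which repeats the −log10 q-value, was left out. The deposited narrow lists also give the summit offset, and ratio and p-value together give whole summit fragments for H3K4me1 (p-values refitted within 1.36e-05 at member peaks). Total reads were not used, so depth is unknown apart from peak numbers and these summits.

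Start sites were the 41451 of protein-coding transcripts in GENCODE basic M21 (GRCm38). A peak was placed by 1 bp of overlap as promoter, otherwise gene body, otherwise outlying. Covered length was measured inside the windows. Sequences were read from the GRCm38.p6 genome of RefSeq with pysam 0.24.0 (samtools 1.23.1, numpy 2.4.6). Marks were compared per gene by two-sided exact permutation tests with Benjamini-Hochberg adjustment over 21864 genes, and the scripts were tested on simulated peaks. With 3 libraries per mark, p-values measure the spread between these libraries, which may be technical. The genes named were the 9 members, their shared H3K4me1 regions (at most 2 each by summit height), the widest promoter H3K4me3 peak, 1 like-patterned gene each, and comparison genes with H3K4me1 promoter peaks in 3 or 0 libraries. Members and lists were chosen with earlier results of these data known. Alternatives covered peak thresholds, distances, placement, merging and left-out libraries. Single values of some comparison and marker genes are not reported here.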

Additional observations from a re-analysis of the deposited data

How the results depend on the processing

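Of the 9 counts over the memory genes, those that moved by more than 1.5 times did so under stricter peak sets, other distances or a looser rule. With the 10000 peaks per library of highest −log10 p-value, genes with every H3K4me3 library above numbered 1 (promoter cover), 1 (body cover) and 2 (outlying peaks), and genes with an H3K4me3 peak in 3 of 3 libraries numbered 3 (promoter), 1 (body) and 5 (outlying). With a −log10 q-value of at least 5, genes with more outlying H3K4me3 peaks numbered 3, and genes with an H3K4me1 peak in 3 of 3 libraries 1 in each of promoter, body and outlying windows. A promoter distance of 2.5 kb or 1 kb gave 5 and 6 genes for body cover, and 1 kb left 0 with an H3K4me1 promoter peak in 3 libraries. An outer limit of 100 kb gave 7 genes with an outlying H3K4me1 peak. Presence in at least 2 of 3 libraries gave 4 for the H3K4me1 promoter. The cause was not tested, and shares over all genes were not computed for these alternatives.

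Leaving out 1 library at a time moved that last count between 2 and 4, the 4 without H3K4me1 replicate 2. Directions turned at the 10000-peak limit for Klf2 promoter cover (−43.3 bp), Hhex (−0.333), Klf2 (−2.33) and Cd38 (−1) outlying peak number. Leaving out 1 library gave −274 to 65 bp for Tle3 body cover and −1.67 to 2.83 for Klf2 outlying peaks. Deviations of same-numbered libraries of the marks correlated at 0.171, 0.0652 and 0.0381 over genes, and replicates 1, 2 and 3 of H3K4me1 did not all correlate best with their own number, so the numbers were not taken as pairs. With the replicate block the counts of genes with H3K4me3 above were 9, 3 and 6, with 0.25 the smallest p its exact sign-flip test allows. Merging, midpoints and peaks at other genes' start sites left all 9 counts within 1.5 times. Leaving out peaks at other genes' start sites still removed the separation in outlying peak number at Zbtb32 and Ski. Of the contrasts at single genes, 312 recomputed values kept their direction and stayed separated or overlapping as reported, 17 lost the separation of the marks, 6 gained it and 7 turned. Low H3K4me1 summits limit what recurrence can show.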
